A study of Mus musculus with 6 samples.

Results

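Glycolysis splits glucose into pyruvate and yields ATP quickly, and the pentose phosphate pathway branches off after the first phosphorylation to make NADPH and ribose for nucleotides. In T cells both pathways are known to be switched on by activation, with MYC, mTORC1 and the oxygen-sensing factor HIF-1 driving transcription of their enzymes. Regulatory T (Treg) cells are known to depend less on glycolysis than effector T cells, and HIF-1 and glycolytic flux are reported to alter their stability and migration.

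The 38 genes described here are the glucose carriers, the enzymes of glycolysis and of the pentose phosphate pathway, the lactate carriers, the regulators of pyruvate entry into mitochondria and Hif1a. They were chosen by name. A gene was measured where at least 1 probe set of the array was annotated to it and to no other gene, which held for 35 of the 38, through 78 of the 34958 such probe sets. These 35 genes stand among 18194 genes in all. Gpi1, Eno1 and G6pdx were not analysed here. Gapdh was measured only through 3 control probe sets of the array.

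RNA came from hCD2+ CD4+ Treg cells isolated from lymph node and spleen of FoxP3hCD2.Batf-/- mice (3 arrays) and of FoxP3hCD2.Batf+/+ mice (3 arrays), all C57BL/6. Every mouse therefore carried the reporter that puts human CD2 under control of Foxp3, and Batf, an AP-1 family transcription factor, was deleted in the Batf-/- mice. The labels name no Cre that would limit the deletion to Treg cells. The cells were not cultured or treated, and the labels give neither the animals' age nor whether each array came from a different animal. What the p-values measure is thus how far these samples vary, and that variation may be technical.

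Values are on a log2 scale and were centred by probe set, so that 0 stands for its middle Batf+/+ array. A gene with several probe sets is their mean. This centring removes absolute levels. It was therefore not possible to tell bright genes from dim ones, to compare levels between isozymes, or to check the cell type by the level of its markers. In sorted populations measured in bulk, fewer cells of a type and less RNA per cell cannot be told apart. Batf itself was at -3.13, -3.16 and -2.37 on the Batf-/- arrays, against -0.13, 0 and 0.14 on the Batf+/+ arrays, which followed the labels (log2 difference -2.89 ± 0.19 SE, limma adjusted p = 0.000202). Markers of B cells, myeloid cells, dendritic cells, CD8 T cells, NK cells, platelets and red cells gave 0 calls in either direction among 27 measured genes. At the share of 1.14% called over all genes, a list of this size would hold few calls or none. Eomes (0.41), Xcr1 (0.27) and Pf4 (0.18) were higher at an unadjusted limma p below 0.05, as were 3.25% of all genes. Of 7 Treg markers 0 were called, where 1.14% of all genes were. Their groups nevertheless did not overlap in 71.4% (12% of all genes), with a median difference of -0.12. The Batf-/- arrays were all lower in 4 of the 7 and all higher in 1, Il2ra (0.21 ± 0.072, limma adjusted p = 0.394). Foxp3 was at -0.12 (limma adjusted p = 0.892) and Ikzf2, which encodes Helios, at -0.51 (adjusted p = 0.0526, and 0.0439 with the median of probe sets and 0.0140 with array weights). Their part in the glycolytic values was not tested.

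Glycolytic and pentose phosphate genes gave no call between Batf-/- and Batf+/+ Treg cells, and the measured differences were small in fold. Of the 35 measured genes, 0 passed the threshold of a limma adjusted p below 0.05 in either direction, where 1.14% of all genes did (0.83% lower and 0.313% higher), a share at which a list of this size would hold few calls or none. At an unadjusted p below 0.05, 4 were lower in Batf-/- cells, Slc2a3, Aldoc, Tpi1 and Pdk3, and 2 were higher, Eno3 and Pdk1. That is 11.4% and 5.71% of the 35, against 4.44% and 3.25% of all genes (7.69% in both directions together). The 95% interval of the log2 difference lay within -0.58 and 0.42 for all 35 genes. A decrease beyond 1.49-fold or an increase beyond 1.34-fold thus lay outside every gene's interval, each taken singly and without correction for their number. These bounds hold for the mean over a gene's probe sets. Intervals of single probe sets reached 2.26-fold lower, in Hif1a, and 1.49-fold higher, in Slc16a1. Of the 78 single probe sets 0 passed the threshold, where 0.712% of all probe sets did. At an unadjusted p below 0.05, 9 of them were lower and 3 higher (over all probe sets 3.9% and 3%), and 56 had a difference below 0 (71.8%, against 48.5%). The differences were nevertheless larger than those of a typical gene, with a median absolute log2 difference of 0.099 against 0.066 over all genes. Of the 35 genes, 6 lay above the 90th percentile of the absolute difference over all genes, and 2 above the 95th. The plot of intervals by step shows each gene's place.

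**Figure D1:**
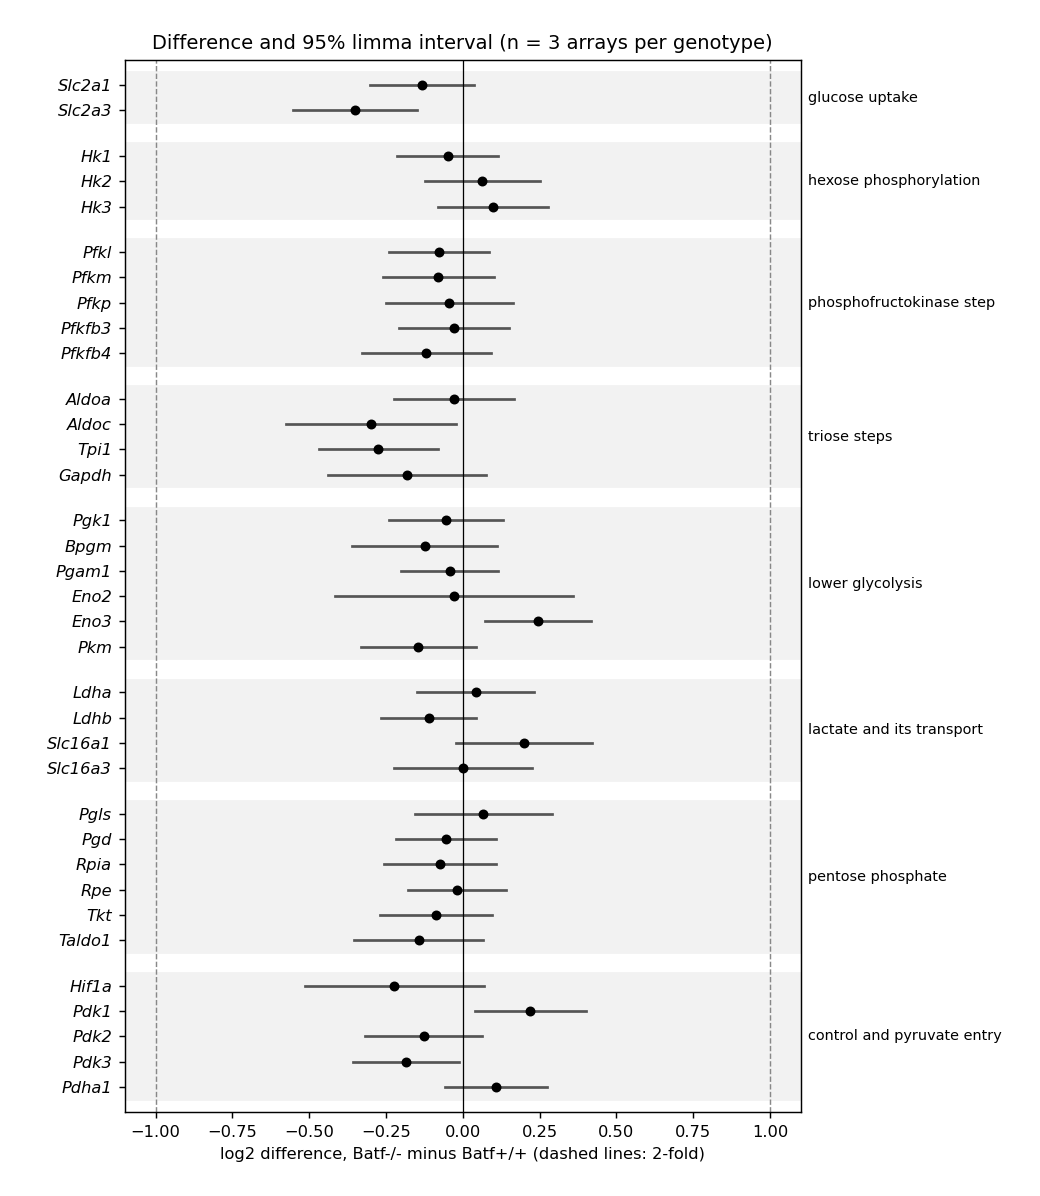
Log2 difference (Batf-/- minus Batf+/+, x axis) of each of the 35 measured genes, grouped by step of the pathway, with its 95% limma interval (bar; n = 3 arrays per genotype). All intervals lie inside the dashed lines at 2-fold, and Slc2a3, Aldoc, Tpi1, Pdk3, Eno3 and Pdk1 are the genes whose interval leaves out 0.

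The small differences leaned downward. In 26 of the 35 genes the log2 difference was below 0 (74.3%), against 48.2% of all genes, and the median was -0.054 against 0.0047 over all genes. The 3 Batf-/- arrays lay below all 3 Batf+/+ arrays in 6 genes (17.1%, against 6.55% of all genes), namely Slc2a1, Slc2a3, Pfkl, Tpi1, Ldhb and Pdk3. They lay above in Eno3, Pdk1 and Pdha1 (8.57%, against 5.5% of all genes). In both directions together the groups did not overlap in 25.7% of the 35 genes, against 12% of all genes. The genes of a pathway are not independent of each other, and these shares were not tested. Without Batf-/- array 3 the median was -0.098 and 7 genes were lower at an unadjusted p below 0.05, with 1 higher. Of all genes, 7.47% passed in either direction in that setting. With any other array left out, the median lay between -0.066 and -0.039, with 2 to 4 genes lower and 1 to 3 higher. Of all genes, 6.44% (without Batf-/- array 2) to 10.3% (without Batf-/- array 1) passed in either direction in those settings.

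**Figure D2:**
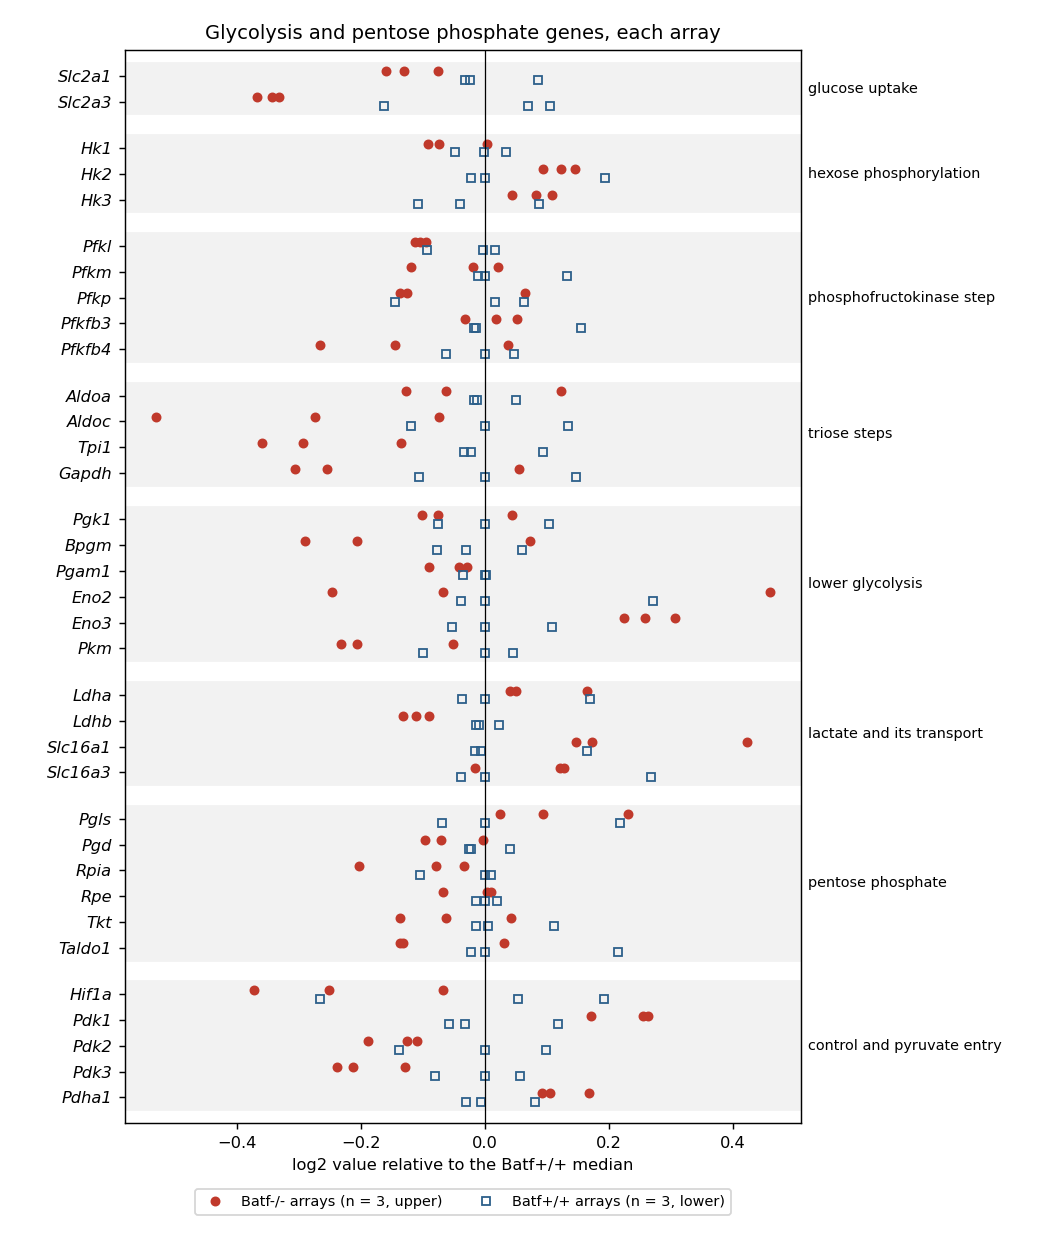
Value of each gene on each array (x axis, log2 relative to the Batf+/+ median), with the 3 Batf-/- arrays as filled circles above and the 3 Batf+/+ arrays as open squares below. The circles of Slc2a3 sit together between -0.37 and -0.33, left of all squares, while for most other genes circles and squares overlap.

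Glucose enters T cells through the facilitative carriers GLUT1 and GLUT3. Slc2a3, which encodes GLUT3, had the largest absolute difference of the 35 genes. Its values were -0.37, -0.33 and -0.34 on the Batf-/- arrays, against 0.10, 0.070 and -0.16 on the Batf+/+ arrays. In this mean over probe sets the Batf-/- arrays were close together and all below the Batf+/+ arrays, which spread more widely. The log2 difference was -0.35 ± 0.089 (SE, 95% interval -0.55 to -0.15, limma adjusted p = 0.161). Its 4 probe sets gave differences between -0.51 and -0.081. The groups overlapped in those at -0.33 and -0.081. The probe set at -0.33 read -0.48, -0.32 and -0.092 on the Batf-/- arrays, so the closeness did not hold in each probe set. With probe sets whose suffix marks shared sequence left out, the difference of Slc2a3 was -0.33 (limma adjusted p = 0.582). The probe set with the largest difference read -0.52, -0.46 and -0.61 on the Batf-/- arrays, against 0.073, 0 and -0.12 on the Batf+/+ arrays. It came nearest to the threshold of all 78 probe sets (adjusted p = 0.0529 over all probe sets), and its suffix marks sequence shared with other transcripts. Slc2a1, which encodes GLUT1, the carrier induced by activation, read -0.16, -0.13 and -0.075 on the Batf-/- arrays, against 0.086, -0.032 and -0.023 on the Batf+/+ arrays. These groups did not overlap either, yet the distance was small (-0.13 ± 0.074, 95% interval -0.30 to 0.037, adjusted p = 0.835).

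Hexokinases trap glucose in the cell as glucose 6-phosphate. Hk2, the isozyme known to be induced by HIF-1 and MYC, read 0.094, 0.15 and 0.12 on the Batf-/- arrays, against 0, 0.19 and -0.022 on the Batf+/+ arrays. The groups overlapped, and the 95% interval of the difference ran from -0.12 to 0.25 (0.063 ± 0.083, limma adjusted p = 1). Hk1, the widely expressed isozyme, had a difference of -0.049 ± 0.072, and Hk3, an isozyme known from myeloid cells, one of 0.099 ± 0.079, both with overlapping arrays.

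Phosphofructokinase commits sugar to glycolysis, and the bifunctional enzymes Pfkfb3 and Pfkfb4 set the level of its activator fructose 2,6-bisphosphate. All 5 genes of this step had differences a little below 0, between -0.12 for Pfkfb4 and -0.028 for Pfkfb3. Pfkl, the liver-type subunit, was the gene of this step whose arrays did not overlap, with -0.095, -0.11 and -0.10 on the Batf-/- arrays, against -0.0026, 0.017 and -0.093 on the Batf+/+ arrays. The gap between its nearest arrays was very small. Its difference of -0.078 ± 0.072 (limma adjusted p = 0.983) came from 1 of 3 probe sets, which gave -0.26, while the others gave 0.025 and 0.0036. The muscle-type and platelet-type subunits Pfkm and Pfkp had differences of -0.080 ± 0.080 and -0.044 ± 0.091.

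The steps that cleave and oxidise the sugar held several of the lowest values. Tpi1, triose phosphate isomerase, which interconverts both products of aldolase, read -0.29, -0.36 and -0.13 on the Batf-/- arrays, against -0.034, -0.023 and 0.093 on the Batf+/+ arrays. All Batf-/- arrays were lower, with array 3 nearest to the Batf+/+ arrays. The log2 difference was -0.27 ± 0.086 (95% interval -0.47 to -0.080, limma adjusted p = 0.322), and its 3 probe sets lay close together, between -0.30 and -0.25.

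Aldoc, the brain-type aldolase, read -0.27, -0.53 and -0.075 on the Batf-/- arrays, against 0, 0.13 and -0.12 on the Batf+/+ arrays. The Batf-/- arrays spread widely (SD 0.23) and array 3 fell within the Batf+/+ range. The difference of -0.30 ± 0.12 (adjusted p = 0.572) rested on 1 of its 2 probe sets, which gave -0.60 where the other gave 0.00044. Aldoa, the main aldolase of most tissues, had a difference of -0.029 ± 0.086 over 5 probe sets.

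Gapdh, which oxidises glyceraldehyde 3-phosphate and is often used as a reference gene, read -0.25, -0.31 and 0.056 on the Batf-/- arrays, against 0, -0.11 and 0.15 on the Batf+/+ arrays. Arrays 1 and 2 of the Batf-/- cells were below all Batf+/+ arrays and array 3 was not. The difference was -0.18 ± 0.11 (95% interval -0.44 to 0.075, limma adjusted p = 0.89), and it was -0.29 (adjusted p = 0.441) without Batf-/- array 3. Its 3 probe sets lie at the 3' end, the middle and the 5' end of the transcript and gave differences between -0.19 and -0.17. The 3' minus 5' value, a sign of RNA quality, was 0.041, 0.073 and -0.021 on the Batf-/- arrays, against 0, 0.076 and -0.0014 on the Batf+/+ arrays, with full overlap (exact two-sided permutation p = 1, where 0.1 is the smallest this design allows). For Actb this value was -0.014, 0.11 and 0.034 on the Batf-/- arrays, against -0.032, 0.044 and -0.015 on the Batf+/+ arrays (exact two-sided permutation p = 0.4).

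In lower glycolysis 5 of the 6 measured genes had differences below 0, and Eno3 was the exception. Eno3, the muscle-type enolase, read 0.22, 0.26 and 0.31 on the Batf-/- arrays, against -0.054, 0 and 0.11 on the Batf+/+ arrays. All Batf-/- arrays were higher. Its difference of 0.24 ± 0.077 (95% interval 0.071 to 0.42, limma adjusted p = 0.323), from 1 probe set, was the largest above 0 among the 35 genes. Eno2, the neuronal enolase, read -0.068, -0.25 and 0.46 on the Batf-/- arrays, against 0.27, 0 and -0.039 on the Batf+/+ arrays. It had the widest spread of the 35 genes (SD 0.37 in Batf-/- cells), and its difference of -0.029 ± 0.17 changed sign with the array left out.

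Pkm, pyruvate kinase, which makes the second ATP-yielding transfer, read -0.21, -0.23 and -0.051 on the Batf-/- arrays, against 0.045, -0.10 and 0 on the Batf+/+ arrays. Batf-/- array 3 lay within the Batf+/+ range, and the difference was -0.14 ± 0.083 (limma adjusted p = 0.841). Pgk1, phosphoglycerate kinase, which makes the first such transfer, had a difference of -0.054 ± 0.082 over 3 probe sets. Pgam1, phosphoglycerate mutase, had one of -0.043 ± 0.069. Bpgm, which makes the 2,3-bisphosphoglycerate of red cells, had one of -0.12 ± 0.10, and -0.23 without Batf-/- array 3.

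Pyruvate is reduced to lactate by lactate dehydrogenase and leaves through the monocarboxylate carriers. Ldha, the subunit that favours lactate, read 0.051, 0.041 and 0.16 on the Batf-/- arrays, against -0.037, 0 and 0.17 on the Batf+/+ arrays. The groups overlapped, with a difference of 0.042 ± 0.084 (95% interval -0.15 to 0.23, limma adjusted p = 1). Ldhb, the subunit that favours pyruvate, read -0.11, -0.13 and -0.091 on the Batf-/- arrays, against -0.014, -0.0095 and 0.023 on the Batf+/+ arrays. Both groups were tight (SD 0.020 each) and did not overlap, yet the difference was only -0.11 ± 0.069 (adjusted p = 0.887), with all 4 probe sets below 0. Whether Ldha and Ldhb differed from each other was not tested.

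Slc16a1, which encodes the lactate carrier MCT1, read 0.42, 0.15 and 0.17 on the Batf-/- arrays, against 0.16, -0.016 and -0.0056 on the Batf+/+ arrays. Array 1 was the highest in each genotype, and the groups overlapped. The difference was 0.20 ± 0.098 (limma adjusted p = 0.747), from 2 probe sets at 0.13 and 0.27. Slc16a3, which encodes the exporter MCT4, known as a HIF-1 target, had a difference of 0.00066 ± 0.099.

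The pentose phosphate genes showed small differences. All 6 measured genes of this branch had overlapping arrays, with a median log2 difference of -0.064. In the oxidative arm, which makes NADPH, Pgls, the lactonase, had a difference of 0.067 ± 0.098, and Pgd, 6-phosphogluconate dehydrogenase, one of -0.053 ± 0.072. In the non-oxidative arm the isomerase Rpia had -0.074 ± 0.080, the epimerase Rpe -0.020 ± 0.070 and transketolase, Tkt, -0.086 ± 0.081. Taldo1, transaldolase, had the largest absolute difference of the branch. Its values were -0.14, -0.13 and 0.031 on the Batf-/- arrays, against -0.022, 0 and 0.21 on the Batf+/+ arrays. In each genotype array 3 was the highest, and the difference was -0.14 ± 0.092 (limma adjusted p = 0.903).

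Pyruvate enters mitochondrial oxidation through pyruvate dehydrogenase, which the kinases Pdk1, Pdk2 and Pdk3 shut off by phosphorylation. Pdk1, the kinase known as a HIF-1 target, read 0.25, 0.17 and 0.26 on the Batf-/- arrays, against 0.12, -0.058 and -0.032 on the Batf+/+ arrays. All Batf-/- arrays were higher. The difference was 0.22 ± 0.080 (95% interval 0.039 to 0.40, limma adjusted p = 0.451). Each of the 4 probe sets gave a difference of 0.19 to 0.24, but the groups overlapped in 2 of them. Pdk3 read -0.24, -0.21 and -0.13 on the Batf-/- arrays, against 0.057, -0.080 and 0 on the Batf+/+ arrays. Here all Batf-/- arrays were lower (-0.19 ± 0.076, 95% interval -0.36 to -0.013, adjusted p = 0.574). Pdk2 had a difference of -0.13 ± 0.084 with overlapping arrays. Pdha1, the catalytic subunit that these kinases phosphorylate, read 0.10, 0.17 and 0.092 on the Batf-/- arrays, against -0.031, -0.0070 and 0.081 on the Batf+/+ arrays. Its groups did not overlap, and the difference was 0.11 ± 0.073 (adjusted p = 0.917).

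Hif1a, the oxygen-regulated subunit of HIF-1, read -0.067, -0.25 and -0.37 on the Batf-/- arrays, against 0.19, 0.053 and -0.27 on the Batf+/+ arrays. The groups overlapped, and array 3 was the lowest in each genotype. The difference was -0.22 ± 0.13 (95% interval -0.51 to 0.068, limma adjusted p = 0.843). HIF-1 is controlled mainly through stability of this protein, which an array does not measure. Its 4 probe sets differed from each other. The Batf-/- arrays were all lower in 2 of them (-0.27 and -0.21), another gave -0.0037, and the last gave -0.41 with a 95% interval from -1.18 to 0.35, the lowest bound of all 78 probe sets.

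**Figure D3:**
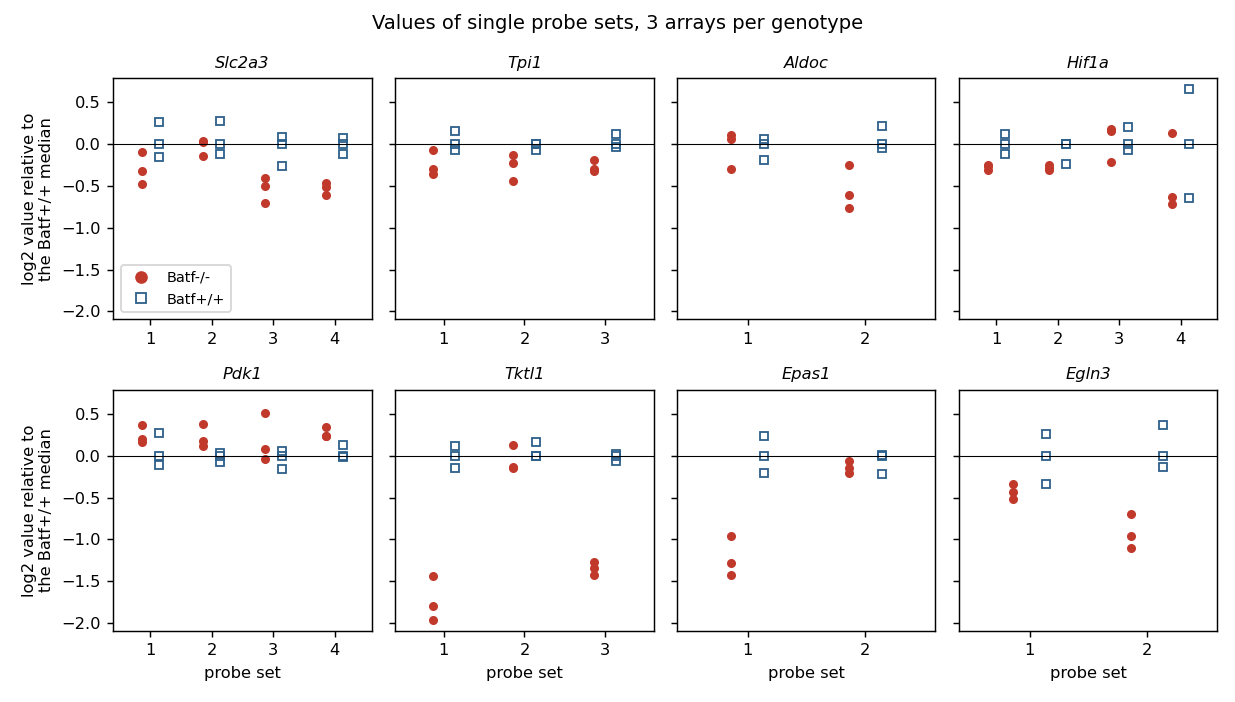
Values of single probe sets (x axis, numbered within each gene in the order of their identifiers) on the 3 Batf-/- arrays (filled circles) and the 3 Batf+/+ arrays (open squares), in log2 relative to the Batf+/+ median. All 3 probe sets of Tpi1 lie lower on the Batf-/- arrays, 2 of the 4 of Pdk1 lie higher there while the other 2 overlap, 1 probe set of Aldoc separates and the other does not, and in Tktl1, Epas1 and Egln3, which are outside the 35 genes, some probe sets lie near or beyond -1 on the Batf-/- arrays.

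HIF-1 binds DNA at the core letters ACGTG, MYC at the E-box CACGTG, which holds these letters, and AP-1 factors such as Batf at TGANTCA. The promoters of 4 genes are shown as examples of these letters: Ldha and Pgk1, classical HIF-1 targets with differences near 0, Tpi1, which had one of the lowest values, and Aldoa, the gene of the list whose promoter held TGANTCA. Each is given 5′ to 3′ on the gene's own strand, from 250 bases before to 50 after a transcription start, from RefSeq on GRCm38.p6. Capitals mark ACGTG and TGANTCA read on either strand. Ldha has 2 windows and Aldoa 3, and the window with the most matches is shown. Pgk1 and Tpi1 have 1 window each. The windows are Ldha at chr7:46845554-46845853 (+ strand), Pgk1 at chrX:106186850-106187149 (+ strand), Tpi1 at chr6:124814109-124814408 (- strand) and Aldoa at chr7:126799205-126799504 (- strand).
Ldha: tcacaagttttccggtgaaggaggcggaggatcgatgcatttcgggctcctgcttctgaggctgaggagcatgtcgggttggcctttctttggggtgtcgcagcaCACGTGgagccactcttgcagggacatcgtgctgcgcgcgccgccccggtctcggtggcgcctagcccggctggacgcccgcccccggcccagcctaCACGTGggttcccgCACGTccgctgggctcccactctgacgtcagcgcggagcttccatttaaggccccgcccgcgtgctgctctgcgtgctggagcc
Pgk1: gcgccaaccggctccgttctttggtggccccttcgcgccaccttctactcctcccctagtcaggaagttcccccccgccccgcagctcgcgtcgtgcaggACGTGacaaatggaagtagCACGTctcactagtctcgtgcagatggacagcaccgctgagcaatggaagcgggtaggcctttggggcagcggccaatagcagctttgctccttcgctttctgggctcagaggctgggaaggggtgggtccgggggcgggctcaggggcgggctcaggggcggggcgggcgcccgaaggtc
Tpi1: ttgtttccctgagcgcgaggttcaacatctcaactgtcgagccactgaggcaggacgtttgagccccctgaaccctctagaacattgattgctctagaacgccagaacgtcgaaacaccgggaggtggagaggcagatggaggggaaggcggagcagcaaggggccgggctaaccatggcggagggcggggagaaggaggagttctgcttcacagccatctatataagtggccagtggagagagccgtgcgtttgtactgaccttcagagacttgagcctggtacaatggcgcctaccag
Aldoa: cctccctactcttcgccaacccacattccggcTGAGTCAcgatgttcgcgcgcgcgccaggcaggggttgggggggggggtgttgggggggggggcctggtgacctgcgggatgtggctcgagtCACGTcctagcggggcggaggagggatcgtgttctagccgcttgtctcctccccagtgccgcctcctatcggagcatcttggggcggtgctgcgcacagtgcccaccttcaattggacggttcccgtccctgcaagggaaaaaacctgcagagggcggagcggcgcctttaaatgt

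In the windows shown, Ldha held ACGTG in 3 places, 2 of them within CACGTG, and Pgk1 in 2 places. Tpi1 held neither motif, and Aldoa held ACGTG in 1 place and TGANTCA in 1. Promoter windows were found for 37 of the 38 genes, 52 windows in all. ACGTG on either strand was in 22 of these 52 windows (42.3%), against 19.6% of all 32851 promoter windows. CACGTG, which contains ACGTG, was in 11.5% of them against 7.15%, and TGANTCA in 1.92% against 7.81%. The 18 measured genes with ACGTG in a window had a median log2 difference of -0.051, and the 16 without it one of -0.064. A match describes letters and does not show binding.

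Other genes of the pathway, taken from a list of 42, gave 1 call among 38 measured genes (2.63%, against 1.14% of all genes). Tktl1, a transketolase-like protein of the non-oxidative arm whose enzymatic activity is debated, fell 2.08-fold in Batf-/- cells. Its values were -1.09, -1.18 and -0.86 on the Batf-/- arrays, against -0.042, 0.019 and 0.054 on the Batf+/+ arrays. The groups were far apart (log2 difference -1.05 ± 0.095 SE, limma adjusted p = 0.00128). Of its 3 probe sets, those with differences of -1.72 and -1.33 passed the threshold over all probe sets, and the third gave -0.11. The suffix of the probe set at -1.72 marks sequence shared with other transcripts. With probe sets so marked left out, the difference of Tktl1 was -0.72 (limma adjusted p = 0.00527). Its absolute level relative to Tkt is not known from centred values. The next smallest adjusted p-values were those of Adpgk, an ADP-dependent glucokinase (0.22 ± 0.082, adjusted p = 0.485), and Prps1, which makes phosphoribosyl pyrophosphate from ribose 5-phosphate (0.18 ± 0.090, adjusted p = 0.758). The median over the 38 genes was -0.035, against 0.0047 over all genes.

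Of 20 measured genes of the HIF pathway and of HIF targets outside glycolysis, 2 fell and 0 rose, with a median of -0.060. Of all genes, 0.83% were called lower and 0.313% higher. Epas1, which encodes HIF-2 alpha, read -0.55, -0.74 and -0.74 on the Batf-/- arrays, against 0.0075, 0.0051 and -0.10 on the Batf+/+ arrays (-0.65 ± 0.083, limma adjusted p = 0.00685). The groups were well apart, yet this rested on 1 of 2 probe sets, at -1.23, while the other gave -0.069. After quantile normalization the adjusted p of Epas1 was 0.0507. Egln3, the prolyl hydroxylase PHD3, which marks HIF subunits for destruction and is itself a HIF target, read -0.70, -0.81 and -0.52 on the Batf-/- arrays, against 0.31, -0.070 and -0.17 on the Batf+/+ arrays. All Batf-/- arrays were lower (-0.70 ± 0.13, adjusted p = 0.0487). This call was lost under most other settings. The adjusted p was 0.431 after quantile normalization, 0.0675 with the median of probe sets and 0.0541 with the replicate number as a block, and it lay between 0.0505 and 0.184 when any 1 array was left out. Ndrg1, a hypoxia-induced gene, had a difference of -0.33 ± 0.071 (adjusted p = 0.0787).

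Of 21 measured genes of MYC and mTORC1 control, 0 passed the limma threshold, where 1.14% of all genes did. At an unadjusted p below 0.05, 1 was lower and 2 were higher, against 4.44% and 3.25% of all genes. The median was -0.025. The smallest adjusted p-values were those of the amino acid transporter chain Slc7a5 (0.30 ± 0.083, adjusted p = 0.214), the mTORC1 inhibitor Tsc2 (-0.28 ± 0.081, adjusted p = 0.258) and the glucose sensor Mlxip (0.32 ± 0.11, adjusted p = 0.436). Myc itself had a difference of 0.14 ± 0.090 (adjusted p = 0.903).

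In several steps of the pathway Batf-/- array 3 stood above arrays 1 and 2. The median over the 35 genes was -0.070, -0.097 and 0.018 on Batf-/- arrays 1, 2 and 3, against 0, -0.0070 and 0 on the Batf+/+ arrays, where the centring holds it near 0. In 24 of the 35 genes Batf-/- array 3 was the highest of the 3 Batf-/- arrays, against 41.1% of all genes. The difference between arrays was widest in the triose steps, with medians of -0.26, -0.33 and -0.0094 on Batf-/- arrays 1, 2 and 3. On Batf+/+ arrays 1, 2 and 3 these medians were -0.0067, -0.020 and 0.072, so that array 3 was the highest in each genotype. The same held for the pentose phosphate and lactate steps. In lower glycolysis Batf+/+ array 1 was the highest of its genotype. For the Batf-/- arrays the glucose uptake step was different. Its median was -0.26, -0.23 and -0.21 on Batf-/- arrays 1, 2 and 3, so that array 3 did not stand apart there.

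Of the other lists, some were also highest on Batf-/- array 3 and some were not. The median of 17 cell cycle genes was -0.074, -0.048 and 0.14 on Batf-/- arrays 1, 2 and 3, against 0, -0.022 and 0.0082 on the Batf+/+ arrays. That of 5 B cell markers was -0.083, 0.057 and 0.34, against -0.029, -0.067 and 0.036, and that of 7 myeloid markers -0.24, 0.0085 and 0.19, against -0.078, 0 and 0.13. In contrast, 3 NK cell markers had medians of 0.079, 0.072 and -0.090 on Batf-/- arrays 1, 2 and 3. The 20 genes of the HIF list had -0.077, -0.0090 and -0.12. Medians of dendritic cell, platelet and red cell markers were highest on Batf-/- array 2. The part of these lists in the glycolytic values was not tested. Without Batf-/- array 3, 0 of the 35 genes passed the threshold, and the differences were -0.35 for Slc2a3, -0.34 for Tpi1 and -0.41 for Aldoc.

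**Figure D4:**
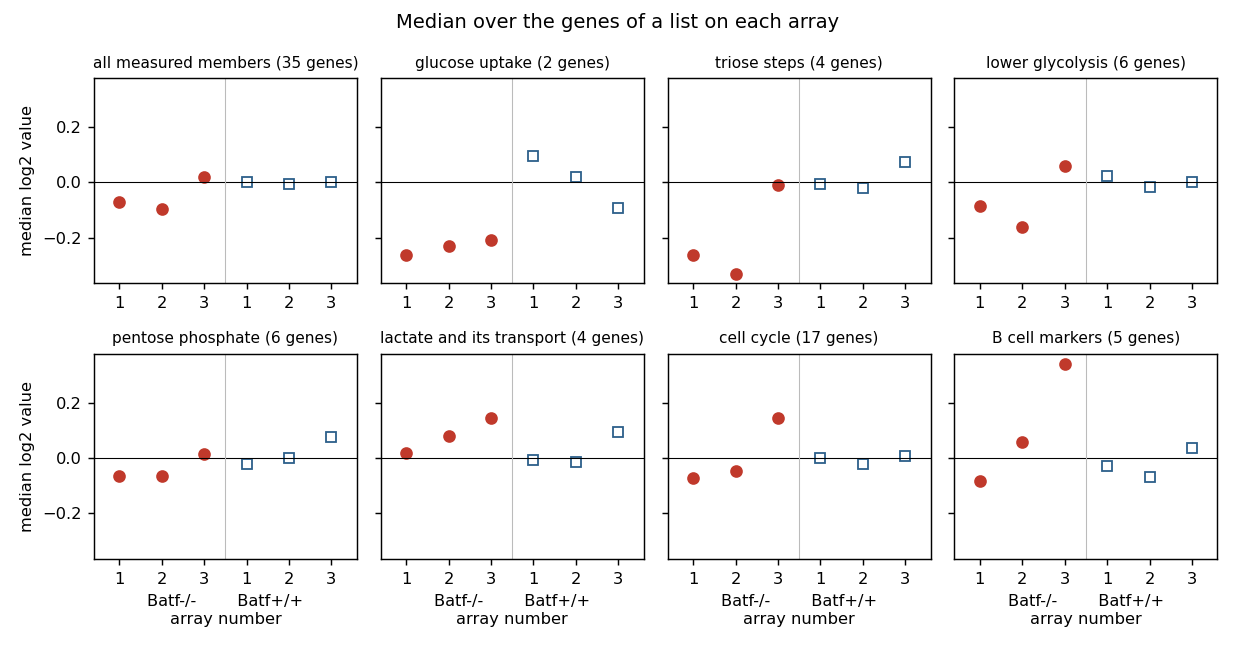
Median log2 value (y axis) over the genes of a list on each array, with Batf-/- arrays (filled circles) left of Batf+/+ arrays (open squares) and the array number of the sample titles on the x axis. Batf-/- array 3 lies above arrays 1 and 2 in the triose steps, lower glycolysis, cell cycle genes and B cell markers, and the 3 Batf-/- arrays lie together in glucose uptake.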

How the data were processed

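Treg cells of 2 genotypes were measured on 3' expression arrays, 3 per genotype. Per the submitters' processing notes the authors used RMA, of unstated version and log base, and the deposited values were taken as log2. The middle Batf+/+ value is exactly 0 for all 45101 probe sets, so the values had also been centred on the Batf+/+ median, a step for which no source used here gives a description. Depth has no meaning for arrays. The number of arrays limits the precision, and signal over background is unknown.

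Gene names come from the platform annotation. Probe sets with 1 gene were kept (34958, of which 13 are controls), and those with several genes (932) or none listed (9211) were left out. Genes are means of their probe sets, with no filter on low values, which centred values do not allow. The genotype effect was fitted with limma 3.58.1 (R 4.3.3, lmFit and eBayes, no other term), with Benjamini-Hochberg adjustment over all 18194 genes and calls at an adjusted p below 0.05. The fit was tested on simulated data. Promoter sequences come from RefSeq (GRCm38.p6).

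All measured members are named, in array detail those with the 8 largest differences and at least 1 per step. From other lists, called genes and up to 3 with the smallest adjusted p are named. Myc and Foxp3 were added after their values were seen. The members and lists were chosen with earlier results of these data known.

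Same-numbered arrays of both genotypes deviated together from their group means across genes (correlations 0.407, 0.154 and 0.413, each above 0.1). On that basis, from the values and not from the labels, a replicate block that pairs equal numbers was run as an alternative. Other summaries, normalizations, weights and left-out arrays were run beside it. The main fit left this pairing out, and unless another setting is named the SEs, intervals and p-values come from it.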

Additional observations from a re-analysis of the deposited data

How the results depend on the processing

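Over all genes, 151 were lower and 57 higher in Batf-/- cells, and these counts moved by over 1.5 times under some settings. Quantile normalization gave 60 and 27, the replicate block gave 91 higher, and leaving out 1 array gave 73 (without Batf+/+ array 2) to 141 lower and 31 (without Batf+/+ array 1) to 51 higher. Of the 35 glycolysis and pentose phosphate genes 0 were called in either direction under any of the 14 other settings, the replicate block included, where the smallest adjusted p was 0.0673, for Slc2a3 with array weights. Over these settings the interval bounds reached 1.60-fold lower and 1.42-fold higher. Their median was -0.054 and lay between -0.098 (without Batf-/- array 3) and -0.039 when 1 array was left out. The log2 difference of 27 of the 35 kept its sign in every setting that measured it. In the other 8 it changed sign in at least 1 setting. Probe sets suffixed _a, _s or _x share sequence among transcripts, of the same gene for _a or also of others. With all of these left out, the log2 difference was 0.0036 for Pfkl, 0.030 for Pfkp and 0.00044 for Aldoc. Those left out for these genes were suffixed _a. Slc16a3 was at -0.0030 with equal array medians and -0.014 after quantile normalization. With 1 array left out, Slc16a3 reached -0.057 to 0.096, Eno2 -0.23 to 0.12, Pfkfb3 -0.058 to 0.028, Aldoa -0.10 to 0.023 and Rpe -0.034 to 0.0049. The cause was not tested. Tktl1 and Batf stayed past the threshold in all 15 settings, the main one included, and Epas1 in 14, while Egln3 did so in 6. The replicate block ended the call of Egln3 (adjusted p = 0.0541) and changed no other call named in the results. A filter on dim genes, another background correction and the slide as a block were not run, because centred values and the files used here give neither levels nor slides.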
